A study of Mus musculus with 6 samples.

Results

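Small nucleolar RNAs and small Cajal body RNAs were compared between 2 subsets of mouse natural killer (NK) cells on an Affymetrix gene array. The RNAs were all those whose gene symbol in the authors' deposited table begins with Snora, Snord or Scarna. These 95 rows of the table named 68 RNAs, out of 21442 named genes on the array. The H/ACA class (Snora) held 28 of them, the C/D class (Snord) 37 and the Cajal body class (Scarna) 3.

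Both subsets came from spleens of C57BL/6 mice (the strain field of the labels reads C57BL/5). T cells were removed with antibody to Thy1.2 and complement, and the remaining cells were grown with 1000 IU of interleukin-2 for 7 days. CD3-negative, CD122-positive cells were then sorted into Ly49C/I+ cells, which lacked Ly49G2, and Ly49G2+ cells, which lacked Ly49C and Ly49I, with 3 arrays for each subset. Neither the age of the mice nor a genetic change or further agent is given, and whether the 3 samples of a subset came from separate mice or cultures is not in the labels. The p-values thus reflect the spread among these arrays alone, part of which may be technical.

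Small nucleolar RNAs guide chemical changes of other RNAs by base pairing. RNAs of the H/ACA class direct the conversion of uridine to pseudouridine, those of the C/D class direct methylation of the ribose, and most of both act on ribosomal RNA in the nucleolus. Small Cajal body RNAs do the same for the small nuclear RNAs of the spliceosome. In mammals most of these RNAs are cut from introns of host genes, many of which encode ribosomal proteins, translation factors or spliced non-coding RNAs, and each is held in a particle with a set of core proteins.

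The NK markers were at similar levels in both subsets. None of the 8 NK markers examined passed the test, and their summed linear signal ranged from 40050 to 42599 on the Ly49C/I+ arrays and from 39920 to 41157 on the Ly49G2+ arrays. Of 9 T cell markers, 4 passed with more signal in Ly49G2+ cells and 0 the other way, and none was below the lower quartile of all probe sets. Their summed signal was 3497 to 3717 in Ly49C/I+ and 5983 to 5999 in Ly49G2+ cells, and their part in the results below was not tested. None of the 5 B cell, 5 myeloid or 4 measured erythroid markers passed. Klra9, the gene of Ly49I, was 3.94-fold higher in Ly49C/I+ cells, as their label says. The 6 arrays had medians of 7.73 to 7.75 (log2). In these bulk samples fewer cells that make an RNA and less RNA per cell cannot be told apart.

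Each small RNA was read by a single short probe set per row, and 58 of the 68 had 1 row. A probe set within an intron-encoded RNA also lies within the unspliced transcript of its host, so mature RNA and precursor are not separated by these values. RNA was extracted on a column kit, a type that retains RNAs of this size poorly, and the part of recovery in the values was not tested. All signals below are log2 values, differences are Ly49C/I+ minus Ly49G2+ with the standard error of the limma fit, and a gene passed at an adjusted p under 0.05 over all 21442 genes. Shifts of an RNA against its host or against another RNA instead carry an ordinary standard error from the arrays of that pair alone.

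Of the 68 RNAs, 31 were higher in Ly49C/I+ cells, 3 had more signal in Ly49G2+ cells and 34 did not pass. The shares of all genes that passed were 6.16% higher in Ly49C/I+ and 3.72% higher in Ly49G2+ cells, against 45.6% and 4.41% of the small RNAs. The median difference was 0.14 over the small RNAs and -0.01 over all genes, and single RNAs ranged from -0.79 to 1.31. At 1.5-fold or more, 15 RNAs passed as higher in Ly49C/I+ and 1 as higher in Ly49G2+ cells, where 0.359% and 0.135% of all genes did. The arrays of the subsets did not overlap in the higher direction for 35 RNAs and in the lower direction for 7, and the shares of all genes were 14.3% and 13.5%. Among the 2499 genes read by 1 probe set alone, 5.12% passed as higher in Ly49C/I+ and 0.6% as higher in Ly49G2+ cells. The 31 became 18 when the p-values in the authors' deposited table were used and 20 with the median in place of the mean over probe sets. With 1 probe set per row, the values of these RNAs were the same under the median. Only the fit and the adjustment over all genes differed there.

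**Figure D1:**
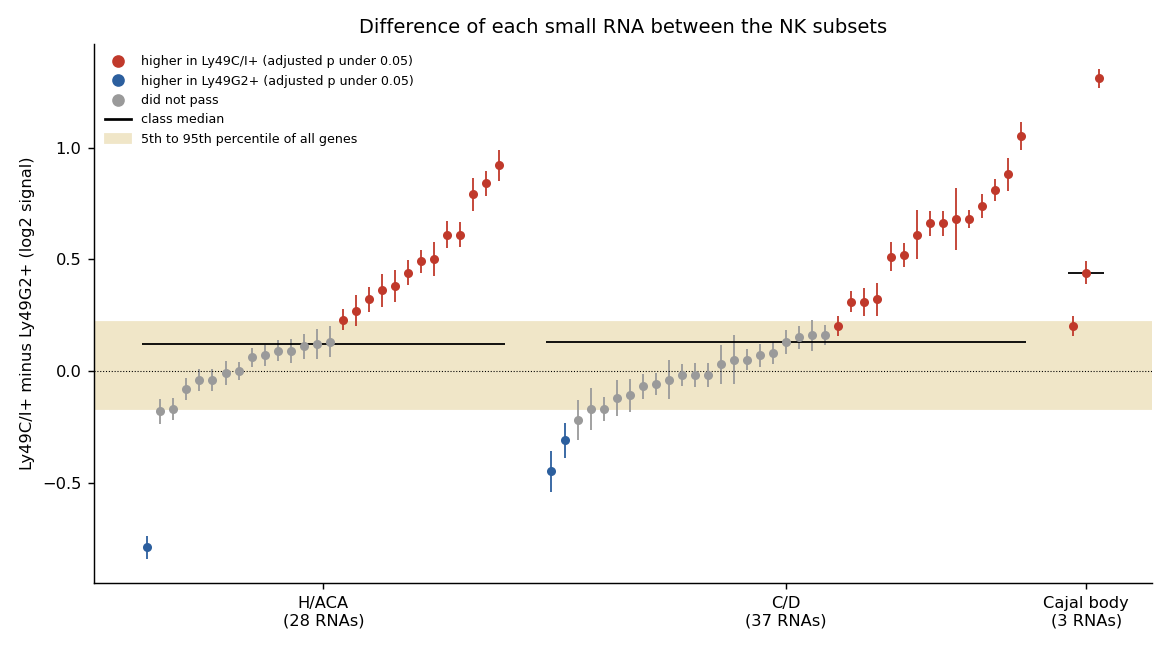
Difference of each small RNA between Ly49C/I+ and Ly49G2+ cells (log2 signal, vertical axis) by class along the horizontal axis. Points are RNAs with the standard error of the limma fit, colours show the direction of those that passed, black lines are class medians (0.12, 0.13 and 0.44), and the band holds the 5th to 95th percentile of all genes. Most of the RNAs that passed lie above 0, and Snora44 lies lowest at -0.79.

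All 3 Cajal body RNAs were higher in Ly49C/I+ cells. Scarna13, known as U93 in human, had signals of 11.01, 10.96 and 10.95 on the Ly49C/I+ arrays and 9.62, 9.68 and 9.68 on the Ly49G2+ arrays. The 2 groups of arrays lay far apart compared with the spread within each. Its difference of 1.31 ± 0.044, or 2.49-fold, was the largest among the 68 RNAs (adjusted p = 4.63e-07). Its ratio in the authors' deposited table is 2.48. Scarna8, in human (as U92) a guide for the U2 spliceosomal RNA, had 7.03, 7.02 and 6.94 against 6.62, 6.57 and 6.48, a difference of 0.44 ± 0.051 (adjusted p = 0.000662). Both groups were again separate. Scarna17 differed least, at 0.20 ± 0.046 (adjusted p = 0.0208), with 12.35, 12.33 and 12.29 against 12.10, 12.18 and 12.08. When 1 array was left out, its adjusted p was 0.0772 (Ly49C/I+ replicate 1), 0.0690 (Ly49C/I+ replicate 2), 0.0788 (Ly49G2+ replicate 1) or 0.0808 (Ly49G2+ replicate 3).

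In the H/ACA class, 13 RNAs were higher in Ly49C/I+ cells, 1 had more signal in Ly49G2+ cells and 14 did not pass. The class median was 0.12. Snora75, known as U23 and encoded in an intron of the nucleolin gene Ncl, had 8.53, 8.46 and 8.41 in Ly49C/I+ cells against 7.69, 7.40 and 7.56 in Ly49G2+ cells. The lowest Ly49C/I+ array was well above the highest Ly49G2+ array, and the difference was 0.92 ± 0.071, or 1.89-fold (adjusted p = 0.000111). Snora23, from an intron of the nuclear import gene Ipo7, had 9.68, 9.72 and 9.65 against 8.91, 8.72 and 8.89, a difference of 0.84 ± 0.057 (adjusted p = 6.7e-05). Snora28, from the translation initiation factor gene Eif5, had 10.81, 11.05 and 11.05 against 10.27, 10.08 and 10.20, a difference of 0.79 ± 0.074 (adjusted p = 0.00025). Neither RNA had any overlap between the subsets.

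The other H/ACA RNAs that were higher in Ly49C/I+ cells differed less. Snora65 and Snora21, both from introns of ribosomal protein genes, differed by 0.61 ± 0.057 and 0.61 ± 0.059, or 1.52-fold each. Differences of 0.50 ± 0.075 for Snora41, 0.49 ± 0.051 for Snora3, 0.44 ± 0.057 for Snora70, 0.38 ± 0.072 for Snora20, 0.36 ± 0.076 for Snora31, 0.32 ± 0.056 for Snora30, 0.27 ± 0.071 for Snora26 and 0.23 ± 0.047 for Snora16a followed. Their adjusted p-values ran from 0.000344 for Snora3 to 0.0437 for Snora26, and Snora41 was below the lower quartile of all probe sets (5.83) in both subsets. The call of Snora31 was lost without Ly49C/I+ replicate 3 (0.36, adjusted p = 0.0580) and that of Snora16a without Ly49C/I+ replicate 2 (0.20, adjusted p = 0.0572). Snora26 lost its call without Ly49C/I+ replicates 1, 2 or 3 and without Ly49G2+ replicates 2 or 3, at 0.19 to 0.31 with 1 array left out. By the authors' deposited p-values, Snora41, Snora20, Snora31, Snora30, Snora26 and Snora16a did not pass (adjusted p = 0.0535 to 0.219).

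Snora44 was the H/ACA RNA that passed as higher in Ly49G2+ cells. It had 8.79, 8.89 and 8.77 on the Ly49C/I+ arrays and 9.60, 9.55 and 9.67 on the Ly49G2+ arrays, so that every Ly49G2+ array was above every Ly49C/I+ array. The difference was -0.79 ± 0.052, or 1.73-fold higher in Ly49G2+ cells (adjusted p = 5.76e-05), and the ratio in the authors' deposited table is 0.584. Among H/ACA RNAs with negative differences that did not pass, Snora43 had -0.18 ± 0.056 (adjusted p = 0.0805) and Snora74a -0.17 ± 0.049 (adjusted p = 0.0626). Snora73a and Snora73b, the U17 RNAs that take part in processing of 18S ribosomal RNA, had differences of 0.07 and 0.12 and did not pass. Snora52 had 12.76, 12.76 and 12.78 against 12.76, 12.77 and 12.76, and its difference was 0.00 ± 0.040.

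In the C/D class, 15 RNAs were higher in Ly49C/I+ cells, 2 had more signal in Ly49G2+ cells and 20 did not pass. The class median was 0.13, and 9 of the 15 differed by at least 1.5-fold. Snord37, which lies in the gene of translation elongation factor 2 (Eef2), had 8.02, 8.16 and 8.14 in Ly49C/I+ cells against 6.97, 7.18 and 7.03 in Ly49G2+ cells. With no overlap, it differed by 1.05 ± 0.063, or 2.07-fold (adjusted p = 3.71e-05). Snord16a, from the ribosomal protein gene Rpl4, had 11.51, 11.42 and 11.37 against 10.66, 10.61 and 10.60, a difference of 0.81 ± 0.049 (adjusted p = 3.71e-05). Snord42b, from Rpl23a, had 9.58, 9.69 and 9.52 against 8.90, 8.81 and 8.87, a difference of 0.74 ± 0.054 (adjusted p = 9.06e-05). Both kept their subsets apart by more than the spread within each.

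The U14 RNAs, which are needed to process 18S ribosomal RNA in yeast, passed for all 3 copies measured. Snord14a, encoded in Rps13, had 9.66, 9.65 and 9.57 against 8.82, 8.56 and 8.85, a difference of 0.88 ± 0.074, or 1.84-fold (adjusted p = 0.000153). Snord14e, encoded in the heat shock protein gene Hspa8, had 9.85, 9.86 and 9.86 against 9.26, 9.08 and 9.26, a difference of 0.66 ± 0.056. Snord14c, also in Hspa8, differed by 0.52 ± 0.053. These RNAs are close in sequence, and how far their probe sets share signal was not tested. Snord22, the U22 RNA that is needed for 18S ribosomal RNA in Xenopus, had 7.58, 7.59 and 7.51 against 7.14, 6.63 and 7.08. Ly49G2+ replicate 2 was the lowest, the subsets did not overlap, and the difference was 0.61 ± 0.11, or 1.53-fold (adjusted p = 0.00724). Without that array it was 0.45, and the call held. The call of Snord22 was lost with the median over probe sets (adjusted p = 0.0538) and with the authors' deposited p-values (adjusted p = 0.14). Snord118, the U8 RNA that acts on the large ribosomal subunit RNAs, had a difference of 0.07 and did not pass.

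Other C/D RNAs higher in Ly49C/I+ cells were Snord95 (0.68 ± 0.042), Snord58b (0.68 ± 0.14), Snord61 (0.66 ± 0.058), Snord96a (0.51 ± 0.065), Snord7 (0.32 ± 0.074), Snord15a (0.31 ± 0.047), Snord38a (0.31 ± 0.063) and Snord85 (0.20 ± 0.046). Snord95 was at 9.23, 9.27 and 9.21 against 8.54, 8.56 and 8.58. Snord58b, Snord61 and Snord38a were dim, with means below that quartile in both subsets. The call was lost for Snord58b without Ly49C/I+ replicate 3 (0.61, adjusted p = 0.0673) and for Snord38a without Ly49C/I+ replicate 2 (0.27, adjusted p = 0.0529) or 3 (0.30, adjusted p = 0.0557). Snord7 lost its call without Ly49C/I+ replicates 1 or 2 and Ly49G2+ replicates 1 or 3 (adjusted p = 0.0503 to 0.0826). Snord85 lost it without any 1 of the 3 Ly49C/I+ replicates and without Ly49G2+ replicate 3 (adjusted p = 0.0539 to 0.0861). By the authors' deposited p-values, Snord58b, Snord96a, Snord7, Snord38a and Snord85 did not pass (adjusted p = 0.0559 to 0.205).

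Both C/D RNAs that were higher in Ly49G2+ cells lie in the ribosomal protein gene Rpl13a, whose intron-encoded RNAs take part in cell death from saturated fatty acids in hamster cells. Snord35a had 9.48, 9.78 and 9.77 in Ly49C/I+ cells against 10.08, 10.01 and 10.30 in Ly49G2+ cells, a difference of -0.45 ± 0.093 (adjusted p = 0.013). Snord33 had 8.68, 8.96 and 8.93 against 9.13, 9.09 and 9.27, a difference of -0.31 ± 0.078 (adjusted p = 0.0353). Ly49C/I+ replicate 1 was the lowest array for both. Without it the differences were -0.36 (adjusted p = 0.0387) for Snord35a and -0.22 (adjusted p = 0.0864) for Snord33. The call of Snord33 was also lost without Ly49C/I+ replicate 3 (adjusted p = 0.0686), Ly49G2+ replicate 1 (0.0684) and Ly49G2+ replicate 3 (0.107). By the authors' deposited p-values neither passed.

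**Figure D2:**
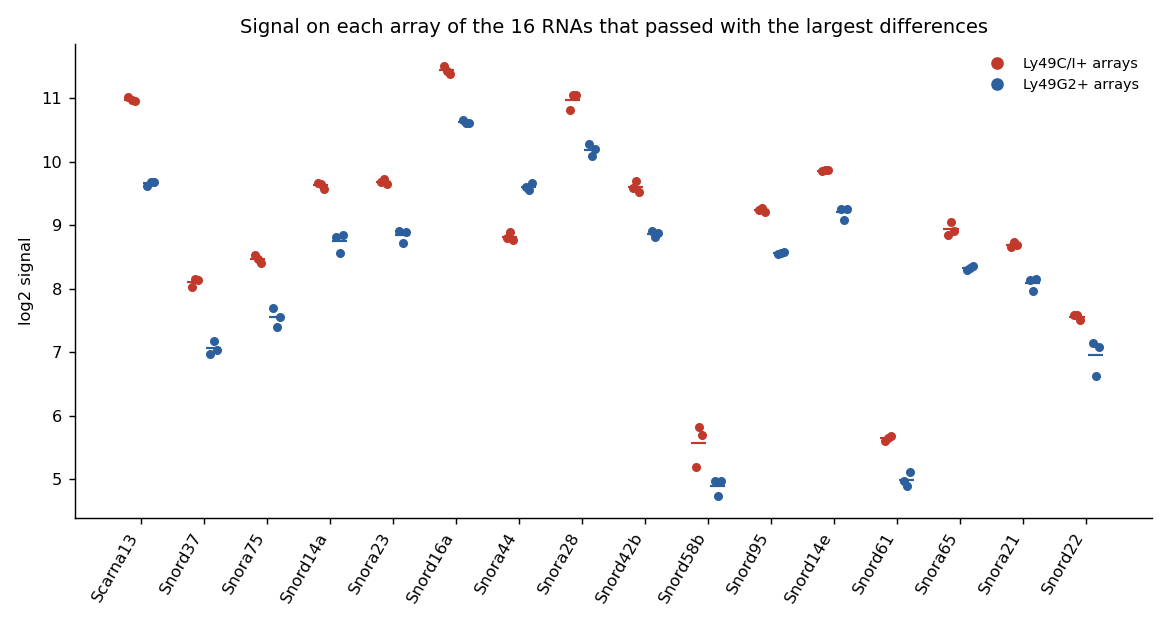
Signal on each array (log2, vertical axis) of the 16 RNAs that passed with the largest differences, in order of size. Red points are Ly49C/I+ arrays, blue points Ly49G2+ arrays, and short lines the group means. The subsets are apart for each RNA, and Snora44 is the 1 RNA shown whose Ly49G2+ arrays are higher.

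Arrays of a subset also differed among themselves. The mean over the 68 RNAs was 8.31, 8.40 and 8.36 on Ly49C/I+ arrays 1, 2 and 3 and 8.14, 8.07 and 8.15 on the Ly49G2+ arrays. Ly49G2+ replicate 2 was the lowest of its group for 41 of 68 RNAs (60.3%), where it was the lowest for 37.3% of all genes. Ly49C/I+ replicate 1 was the lowest of its group for 37 RNAs (54.4%), against 34.6% of all genes. With each array left out in turn, the count of RNAs that passed was 25 to 30 for Ly49C/I+ and 2 to 3 for Ly49G2+ cells.

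Each RNA was set beside the gene whose span holds it in the RefSeq annotation. A single host was found for 63 RNAs, and it was measured under its own name for 48 of them, in 39 hosts. Snhg10 (for Scarna13), Snhg12 (for Snora16a, Snora44 and Snora61) and 2410006H16Rik were among the hosts not measured. In 27 of the 48 pairs the small RNA passed, 25 times higher and 2 times lower in Ly49C/I+ cells. Its host did not pass in 25 of these 27 pairs. Among all 39 hosts, 5 passed as higher in Ly49C/I+ cells and 0 the other way (12.8%), beside 9.88% of all genes. Most genes did not pass, so this count alone does not set the hosts of these RNAs apart. Over these pairs the median difference was 0.52 for the small RNAs, and the 24 hosts had differences of -0.10 to 0.26 with a median of 0.04.

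Eef2 had a difference of -0.03 ± 0.052 (adjusted p = 0.78), beside 1.05 for its Snord37. The signed difference Snord37 minus Eef2, taken on each array, was 1.08 ± 0.077 higher in Ly49C/I+ cells (exact permutation p = 0.1, the smallest that 3 against 3 arrays can give). Ncl had 0.09 ± 0.046 (adjusted p = 0.26), and Snora75 minus Ncl shifted by 0.82 ± 0.079. For Snora23 and Ipo7 the shift was 0.87 ± 0.065, for Snord14a and Rps13 0.77 ± 0.092, for Snord16a and Rpl4 0.76 ± 0.13, and for Snora28 and Eif5 0.71 ± 0.10. Snord95 shifted by 0.65 ± 0.016 against Rack1, a ribosome-bound scaffold protein gene. Rpl13a had -0.04 ± 0.044 (adjusted p = 0.626), and Snord35a shifted by -0.41 ± 0.13 against it. Shifts were 0.18 to 1.08 in the pairs whose RNA was higher in Ly49C/I+ cells. Since these pairs follow the test of the RNA itself, their exact p of 0.1 in 27 of 27 adds no support, and 10 of the 21 pairs whose RNA did not pass had it too. Tcp1, the host of Snora20, had 0.18 ± 0.050 and fell just short of passing (adjusted p = 0.05 after rounding). It passed in 5 of the alternatives (adjusted p = 0.0178 to 0.0438). However, the Tcp1 row with 13 probe sets had -0.01 ± 0.045 (adjusted p = 0.918). The difference lay in its row with 1 probe set, at 0.37 ± 0.065 (adjusted p = 0.0187). A host's value here mixes exon-level probe sets, and in Rpl12, the host of Snora65, the row with most probe sets had a difference of 0.68 ± 0.095 (adjusted p = 0.00926) beside 0.07 for the gene.

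In 2 pairs both passed, in the same direction. Haus6, a spindle protein gene that holds Scarna8, had 0.26 ± 0.061 (adjusted p = 0.0245), and Rbmx, an RNA-binding protein gene that holds Snord61, had 0.23 ± 0.057 (adjusted p = 0.0325). Haus6 lost its call with any 1 array left out except Ly49G2+ replicate 1, at 0.21 to 0.27 (adjusted p = 0.0548 to 0.0892). Rbmx lost its own in the same 5 cases, at 0.17 to 0.25 (adjusted p = 0.0555 to 0.104). The small RNAs Scarna8 and Snord61 kept their calls in each of these settings.

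In 3 pairs the host passed and the RNA did not. Snhg16, a spliced non-coding host, differed by 0.38 ± 0.055 (adjusted p = 0.00209) with 0.08 ± 0.050 for its dim Snord1c. Gas5, another non-coding host, differed by 0.34 ± 0.042 (adjusted p = 0.000898) beside -0.04 ± 0.087 for Snord47. Nop56 differed by 0.55 ± 0.073 (adjusted p = 0.00131) beside -0.02 ± 0.053 for Snord57. For Gas5 and Nop56 the difference lay in rows with 1 probe set. The Gas5 row with 8 probe sets had 0.07 ± 0.043 (adjusted p = 0.402), and its other rows 0.88 ± 0.068 and 0.08 ± 0.059. The Nop56 row with 8 probe sets had 0.13 ± 0.039 (adjusted p = 0.115), and its other rows 0.55 ± 0.060 and 0.97 ± 0.18. The sources used here do not say what those single probe sets read within the genes. Ratios for the brightest row of each in the authors' deposited table are 1.04 for Gas5 and 1.08 for Nop56.

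**Figure D3:**
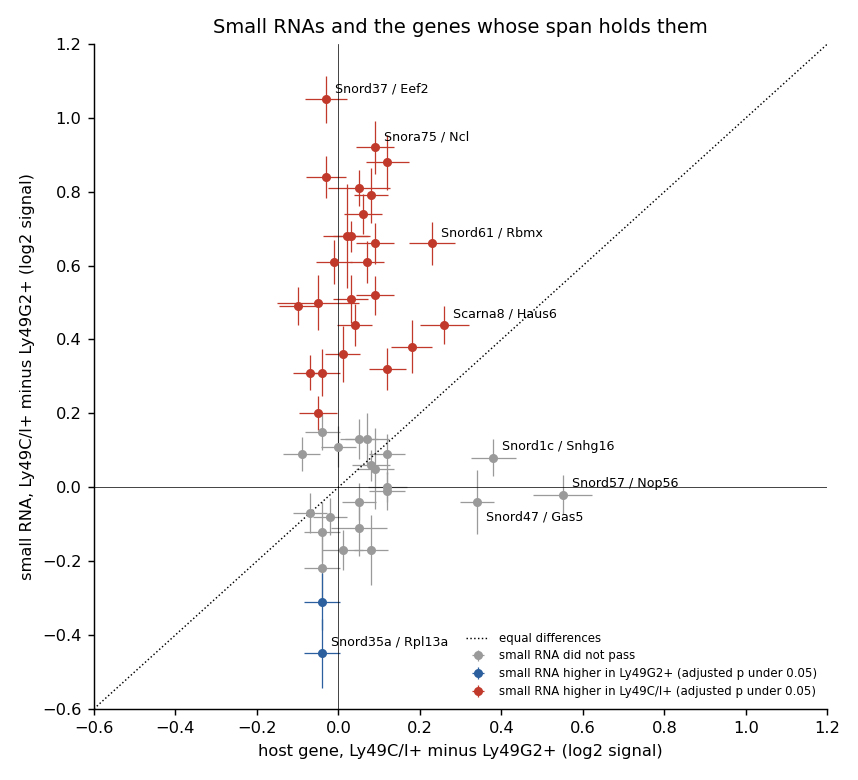
Difference of each small RNA (vertical axis) against that of its host gene (horizontal axis), both Ly49C/I+ minus Ly49G2+ in log2 signal, for 48 pairs with standard errors of the limma fit. Colours show whether the small RNA passed, and the dotted line marks equal differences. Hosts of RNAs that passed lie between -0.10 and 0.26, whereas their RNAs reach 1.05.

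Start regions of hosts are shown because genes of the translation machinery, many small RNA hosts among them, often start within a run of pyrimidines. Such a start is called a terminal oligopyrimidine start. By the search below, hosts of RNAs that differed most include genes with and without a match near the annotated start. Sequences are from RefSeq (GRCm38.p6), from 50 bases before to 10 bases from the annotated start, in the sense of transcription. Capitals mark a C followed by at least 5 further C or T that begins within 5 bases before to 6 bases from the start, searched on the transcribed strand, and annotated starts are approximate. Of 50 hosts, 41 had an entry, and 12 of these (29.3%) held such a run, where 11.9% of all 27025 genes with an entry did. Of the 22 hosts with an entry that hold an RNA higher in Ly49C/I+ cells, 5 held one. Rack1 (chr11:48800310-48800369, plus strand), Rpl13a (chr7:45128736-45128795, minus) and Snhg12 (chr4:132308628-132308687, plus) held one, and Eef2 (chr10:81176581-81176640, plus), Ncl (chr1:86359446-86359505, minus) and Snhg10 (chr12:105032270-105032329, minus) did not. In Snhg10 a run of the required length begins 6 bases before the start, just outside the searched stretch. A match is a run of letters only, and the lack of one does not show that a gene lacks such a start.
Rack1: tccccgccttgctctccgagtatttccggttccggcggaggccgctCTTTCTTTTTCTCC
Rpl13a: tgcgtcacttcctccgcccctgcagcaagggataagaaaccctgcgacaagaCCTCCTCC
Snhg12: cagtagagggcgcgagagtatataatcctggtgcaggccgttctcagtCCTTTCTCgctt
Eef2: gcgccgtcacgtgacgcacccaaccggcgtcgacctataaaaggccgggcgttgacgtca
Ncl: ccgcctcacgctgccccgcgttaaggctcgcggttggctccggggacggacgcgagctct
Snhg10: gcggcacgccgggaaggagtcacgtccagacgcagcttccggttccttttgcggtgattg

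RNAs that lie in the same host were then compared with each other. In all, 10 hosts held 23 of the RNAs. In 2 hosts both RNAs passed in the same direction, in 4 hosts at least 1 RNA passed and at least 1 did not, in 3 hosts none passed, and in 1 host RNAs passed in opposite directions.

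That host was Snhg12, a non-coding gene whose introns encode Snora16a, Snora44 and Snora61. Snora16a had 8.53, 8.61 and 8.53 in Ly49C/I+ cells against 8.34, 8.28 and 8.37 in Ly49G2+ cells, a difference of 0.23 ± 0.047 (adjusted p = 0.0131). Snora61 had 9.37, 9.47 and 9.38 against 9.40, 9.45 and 9.49, a difference of -0.04 ± 0.048 (adjusted p = 0.693). Snora44, with -0.79, stood apart from both. Snora16a minus Snora44 averaged -0.26 on the Ly49C/I+ arrays and -1.28 on the Ly49G2+ arrays, a shift of 1.02 ± 0.017. Snora44 minus Snora61 shifted by -0.75 ± 0.032 (exact permutation p = 0.1 for each pair). Since these pairs follow the tests of the RNAs themselves, that p-value adds no support, here or in the Ncl and Rps3 pairs below. The sources used here do not say which part of each RNA its probe set reads.

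In Ncl, Snora75 passed, whereas the C/D RNA Snord82 had 10.23, 10.57 and 10.73 against 10.50, 10.38 and 10.49 and overlapped between subsets (0.05 ± 0.11, adjusted p = 0.828). Their difference shifted by 0.86 ± 0.19 (exact permutation p = 0.1). In the ribosomal protein gene Rps3, Snord15a had 8.07, 8.06 and 7.97 against 7.76, 7.69 and 7.71 and passed, and Snord15b did not (-0.07 ± 0.055, adjusted p = 0.491), with a shift between them of 0.39 ± 0.086 (exact permutation p = 0.1). In Rpl13a all 4 RNAs had negative differences. Those that did not pass were Snord32a, with 10.78, 11.08 and 11.16 against 11.20, 11.17 and 11.32 (-0.22 ± 0.089, adjusted p = 0.166), and Snord34 (-0.12 ± 0.080, adjusted p = 0.425).

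Pairs that passed together lay in Rack1 and Hspa8. Snord95 and Snord96a of Rack1 differed from each other by 0.17 ± 0.077 in their change (exact permutation p = 0.2), and Snord14c and Snord14e of Hspa8 by -0.13 ± 0.046 (exact permutation p = 0.1). The hosts with no RNA that passed were Kansl2, Snhg3 and 2410006H16Rik.

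**Figure D4:**
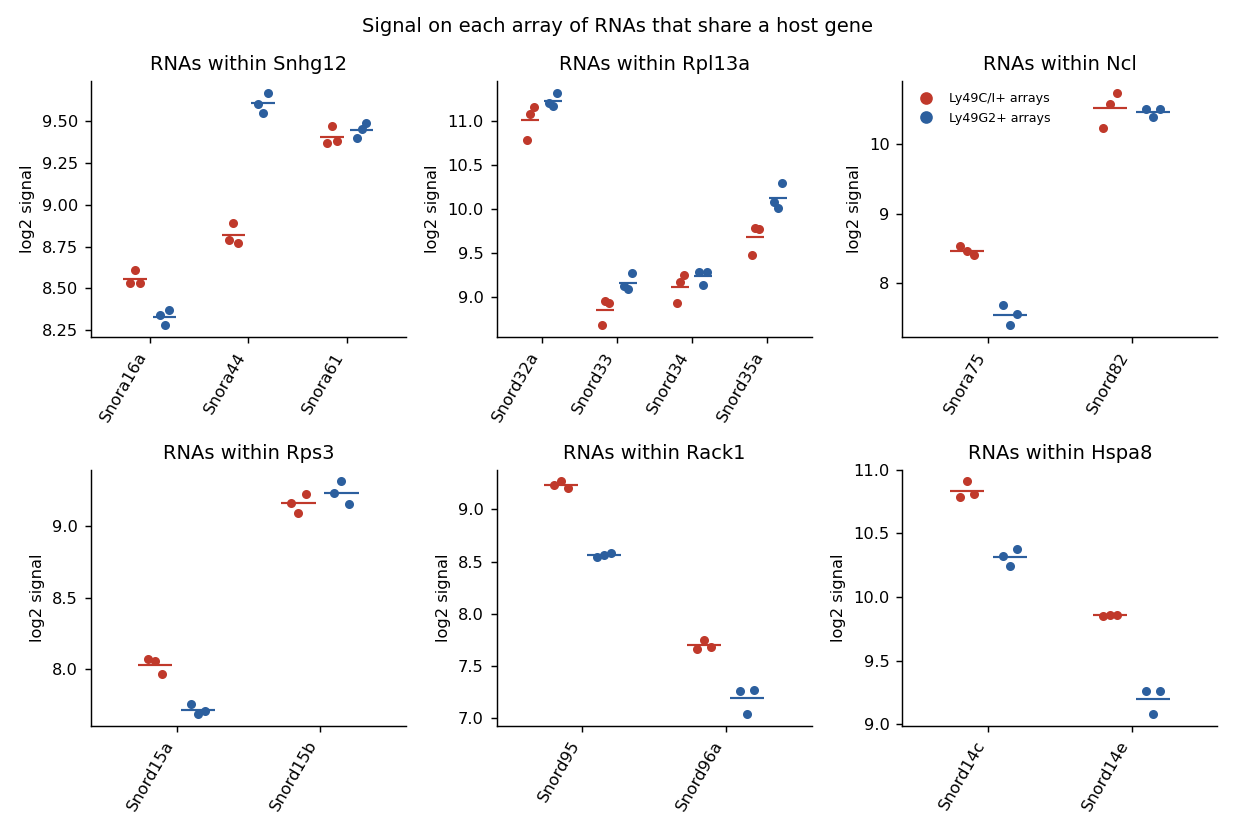
Signal on each array (log2, vertical axes) of RNAs that lie in the same host, for Snhg12, Rpl13a, Ncl, Rps3, Rack1 and Hspa8. Red points are Ly49C/I+ arrays, blue points Ly49G2+ arrays, and short lines the group means. In Snhg12 the subsets swap order between Snora16a and Snora44, and in Rack1 and Hspa8 both RNAs are higher in Ly49C/I+ cells.

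The genes for proteins of these particles were read beside the RNAs. Of 26 such genes, 3 passed as higher in Ly49C/I+ cells and 0 in the other direction in the limma test. This was 11.5% in all, beside 9.88% of all genes, of which 6.16% passed as higher in Ly49C/I+ cells. At an unadjusted p under 0.05 in that test, 10 were higher and 1 lower, where 2640 and 2285 of all 21442 genes were. Their median difference was 0.05. Nop56, a core protein of C/D particles, had gene values of 9.25 and 8.70, with the single-probe-set rows described above. Nhp2, a core protein of H/ACA particles, differed by 0.31 ± 0.046 (10.23 against 9.93, adjusted p = 0.00252), and Gemin2, of the complex that assembles spliceosomal particles, by 0.26 ± 0.052 (7.62 against 7.36, adjusted p = 0.0112). Gemin2 had 0.24 (adjusted p = 0.0509) without Ly49C/I+ replicate 2. Nhp2 and Gemin2 both lost their calls with the median over probe sets (adjusted p = 0.152 and 0.113). The same held with the authors' deposited p-values (adjusted p = 0.0978 and 0.162). The C/D methyltransferase gene Fbl had -0.13 ± 0.053 (adjusted p = 0.179), the pseudouridine synthase gene Dkc1 had 0.01 (adjusted p = 0.957), and Coil, which encodes the Cajal body protein coilin, had 0.11 (adjusted p = 0.215).

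Other small RNA genes on the array were set beside the members. Of 327 microRNA genes, 21 were higher in Ly49C/I+ cells and 0 lower in the limma test (6.42%), with a median of 0.01. The shares of all genes were 6.16% higher and 3.72% lower in Ly49C/I+ cells. The microRNA genes were dim, with a median signal of 5.23, below the lower quartile of all probe sets (5.83). The median signal was 8.5 for the small nucleolar and Cajal body RNAs and 7.08 for all genes. The part of signal level in these shares was not tested. Of 15 further small RNAs, 3 were higher in Ly49C/I+ cells (20.0%) and 1 was lower (6.67%). Rnu12, the U12 RNA of the minor spliceosome, differed by 0.29 ± 0.050 (adjusted p = 0.0058). Rnu3b1, a copy of U3, which is a C/D RNA of ribosomal RNA processing that the symbols place outside the Snord genes, differed by 0.20 ± 0.049 (adjusted p = 0.0291), and Rnu3a by 0.18 ± 0.067 (adjusted p = 0.143). Vaultrc5, a vault RNA, differed by 0.30 ± 0.070 (adjusted p = 0.023). Rny3, a Y RNA that binds the Ro protein, was higher in Ly49G2+ cells, with 11.90 against 12.36 (-0.46 ± 0.064, adjusted p = 0.00158). Terc, the telomerase RNA, which ends in an H/ACA domain, had 0.02 ± 0.047 (adjusted p = 0.884). The calls of Rnu3b1 and Vaultrc5 were lost without Ly49C/I+ replicate 2 (adjusted p = 0.109 and 0.0939) and without Ly49C/I+ replicate 3 (0.106 and 0.084), and that of Rnu3b1 also without any 1 Ly49G2+ array (0.0611 to 0.0723).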

How the data were processed

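RNA of 6 sorted samples, 3 per subset, was measured on an Affymetrix gene array from 100 ng of RNA with integrity numbers above 9, per the labels' protocols. Groups and replicate numbers came from the sample titles, and the source field of 1 Ly49G2+ sample names the other subset. Partek and RMA (robust multi-array averaging) are named in the submitters' processing notes, with versions and settings not given in the sources used here. The authors deposited log2 values of probe sets for each array. Their second deposited file lists 35556 transcript clusters, each with a p-value, a ratio (Ly49C/I+ over Ly49G2+) and log2 group means, which per the file headers come from an ANOVA on the sample set. No per-sample column was left unused.

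Probe sets were assigned to clusters through runs of consecutive ID numbers, and 193 of 241576 were left out. For the clusters of the small RNAs, differences computed this way lay within 0.0455 of those in the deposited table. Values were averaged over probe sets and rows per gene. Limma 3.58.1 in R 4.3.3 was used (lmFit, eBayes, no filter, two-sided, Benjamini-Hochberg over 21442 genes), and was tested on simulated data. Python 3.11.15, pandas 2.3.3, numpy 2.4.6, scipy 1.17.1 and matplotlib 3.10.9 were also used. Paired values (small RNA minus host, or between RNAs of a host) were compared over arrays by exact two-sided permutation, unadjusted. Their standard errors come from the pooled spread within the subsets for that pair alone. They draw nothing from other genes, unlike those of the limma fit, and can be smaller by accident of few arrays. Arrays give no read depth, and their number limits the precision.

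Hosts were found by span in RefSeq (GRCm38.p6). A host on the same strand was intended, but the annotation used here gives no strand for the small RNAs, so strand was not checked. Snord47 was assigned to Gas5, a known host. Snord7, Snord8 and Snord87 fell within several genes, and no host was assigned to Snord116 and Snord118. The files name no build. Some host genes are counted but not reported by name here.

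Named RNAs were the 30 members of lowest p among those that passed, the 3 largest differences in each direction per class, their hosts, and proteins of the particles that passed (up to 8, with the 2 largest differences). Snord85, Snord7, Snora26 and other RNAs and hosts were named after their values were seen. The members and all lists were chosen with earlier results of these data known.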

Additional observations from a re-analysis of the deposited data

How the results depend on the processing

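Leaving out 1 array gave 25 to 30 RNAs higher in Ly49C/I+ and 2 to 3 higher in Ly49G2+ cells. The ranges were 11 to 13 and 1 to 1 for H/ACA, 12 to 15 and 1 to 2 for C/D, 2 to 3 for Cajal body RNAs, 2 to 3 for particle proteins, 3 to 5 for hosts, 15 to 22 for microRNAs, 1 to 3 and 1 to 1 for other small RNAs, and 22 to 27 for pairs with the host not passing. Testing only genes above the median signal gave 19 and 6 RNAs (8 and 3 H/ACA, 9 higher C/D) and 5 microRNAs, with fewer genes tested. The median over probe sets gave 20 and 1 (8 higher H/ACA, 0 lower C/D), 1 particle protein, 3 hosts, 10 microRNAs and 0 other small RNAs. The authors' deposited p-values gave 18 and 1 (7 higher H/ACA, 9 and 0 C/D), 1 particle protein, 0 hosts higher and 1 lower, 9 microRNAs, 0 and 0 other small RNAs, and 16 pairs. With each row tested apart and a gene read by its brightest row, there were 1 lower C/D RNA, 1 host and 1 other small RNA. The 25th percentile filter and repeated quantile normalization each gave 2 lower H/ACA RNAs. Array weights gave 5 particle proteins. Trend and robust moderation gave 5 particle proteins and 1 lower host. Same-numbered samples of the subsets did not deviate together (r = -0.0763, -0.186 and -0.0457) and share only a number. With that number as a replicate block there were 28 and 3 small RNAs and 1 other small RNA higher, and the calls of Scarna17 (adjusted p = 0.0511), Snora26 (0.0635), Snord7 (0.0623), Rbmx (0.0567), Rnu3b1 (0.0731) and Vaultrc5 (0.0618) were lost. Of the 34 RNAs that passed, 19 passed in all alternatives that gave them a value and 15 failed in at least 1, and 0 reversed. Under the median over probe sets the values of the small RNAs themselves were unchanged, and only the fit and adjustment over all genes differed for them. The cause of the other changes was not tested except where stated.

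Differences that reversed did not pass in the main setting, and Tcp1 among them passed in 5 alternatives. With 1 array left out they ran from -0.06 to 0.19 for Snord82, -0.06 to 0.02 for Snord57, -0.12 to 0.08 for Snord47, -0.07 to 0.02 for Eef2, -0.02 to 0.12 for Rpl4, -0.06 to 0.00 for Ipo7, -0.03 to 0.01 for Rpl23, -0.19 to 0.04 for Eef1b2, -0.01 to 0.08 for Rpl17, 0.00 to 0.03 for Tpt1 and -0.02 to 0.04 for Terc. The median over probe sets gave -0.03 for Rpl4, -0.05 for Rack1 and -0.10 for Eif5. The authors' table gave -0.03 for Rack1, 0.01 for Ipo7, -0.01 for Rpl12, -0.02 for Tcp1, -0.02 for Rpl17 and 0.00 for Tpt1. The brightest row gave 0.00 for Rpl12, -0.01 for Tcp1 and -0.02 for Rpl17, repeated quantile normalization -0.01 for Rpl10 and -0.04 for Tpt1, and array weights -0.01 for Terc. Signal over background limits the dim RNAs: 11 of 68 lay below the lower quartile of all probe sets, and 4 of these passed.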
